A study of Mus musculus with 2 samples.

Results

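A set of 10 genes that are used to recognise retinal ganglion cells (RGCs) or that build their axons was followed through droplet-based scRNA-Seq of the mouse retina. They are the neurofilament genes *Nefl*, *Nefm* and *Nefh*, the axonal kinesin gene *Kif5a*, and *Sncg*, *Slc17a6*, *Thy1*, *Rbpms*, *Pou4f1* and *Pou4f2*, taken by symbol as 10 of the 32285 genes in the files. There were 2 libraries, 1 from WT and 1 from ND6 retina, both from male C57BL/6J mice of 7 months. The mutant mice carried the mtDNA change ND6 13997 G>A, and the WT and mutant mice had the strain, the sex, the age and the enzymatic dissociation of the retina in common. How many mice or retinas went into each library is not given in the sources used here. With 1 library per genotype, a difference between WT and mutant cannot be told apart from a difference between these libraries, and no test or p-value was possible.

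RGCs are the output neurons of the retina, and their axons form the optic nerve. Neurofilaments are heteropolymers of a light, a medium and a heavy subunit that fill large axons, and kinesin-1 motors carry mitochondria and vesicles along the microtubules of those axons. RGCs are the cells lost in Leber hereditary optic neuropathy, the disease to which the ND6 mutation belongs. RGC axons are rich in mitochondria. The genes were chosen by their levels across mtDNA content, in *Glul*-positive barcodes, in amacrine cells and in free RNA of both genotypes, so those levels are given as a description and support nothing by themselves.

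Several of the genes have close relatives, and reads from identical stretches cannot be assigned to one of them. The longest such stretch among the genes and their paralogs, 71 coding bases, was shared by *Pou4f1* and *Pou4f2*, which encode the POU-domain transcription factors Brn3a and Brn3b. The stretch lies in exon 2 of 3 of *Pou4f1* (mm10 chr14:104466054-104466124, minus strand) and in exon 2 of 2 of *Pou4f2* (mm10 chr8:78435062-78435132, minus strand). The sequences are shown because they hold the longest identical coding stretch of this pair. Untranslated regions were not compared. They were read from GENCODE M21 transcripts, capitals mark the identical bases and lower case marks 10 flanking bases on each side.
Pou4f1: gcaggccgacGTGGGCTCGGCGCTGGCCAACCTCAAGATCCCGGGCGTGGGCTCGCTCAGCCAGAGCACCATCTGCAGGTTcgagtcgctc
Pou4f2: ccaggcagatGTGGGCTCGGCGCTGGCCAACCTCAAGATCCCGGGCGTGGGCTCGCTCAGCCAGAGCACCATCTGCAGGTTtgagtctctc
The *Pou4f1* and *Pou4f2* stretch ended 3238 and 2052 bases before the 3′ ends of the transcripts, whereas the libraries capture RNA at its 3′ end. Of the other pairs given here, the longest identical stretches were 23 bases for *Kif5a* and *Kif5c*, 21 for *Slc17a6* and *Slc17a7*, 17 for *Nefl* and *Nefm* and 14 for *Nefl* and *Nefh*. A separate overlap concerns *Nefl* (chr14:68083863-68089095, plus strand), which lies inside the annotated extent of *Nefm* on the minus strand (chr14:68082590-68124846). The strand setting of the counting is not given in the sources used here, so the split of reads between *Nefl* and *Nefm* is uncertain to that extent.

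Barcodes with more than 400 unique molecular identifiers (UMIs) and more than 200 detected genes were kept, which left 23176 WT and 22256 mutant barcodes with 67391917 and 67624906 UMIs. They were split by the share of their UMIs that came from the 13 protein-coding mtDNA genes. The split differed between the libraries, since 45.9% of WT barcodes but 17.3% of mutant barcodes lay over 20% mtDNA, the limit above which the study discarded cells, and 21.6% and 51.6% lay at 0 to 10%. Barcodes over 20% were also shallower, with median depths of 1014 (WT) and 791 (mutant) UMIs against 3261 and 1560 at 0 to 10%. Over 20%, the summed level of 8 Müller cell markers was 730 CPM, that is, UMIs of the genes per 1000000 UMIs of the same barcodes, in WT and 2348 CPM in the mutant, and that of 12 RGC markers outside the 10 genes 112 and 258 CPM. The part that these differences in composition and depth had in the results below was not tested. The libraries shared 143 kept barcodes, 0.617% of WT and 0.643% of mutant barcodes, where 75.9 would be shared by chance. Intervals below are exact 95% intervals for counting error only.

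*Nefl*, which encodes the light subunit that starts neurofilament assembly, had the highest level of the 10 genes in every bin of mtDNA content in both libraries. In WT it stood at 33.2 CPM (31.4 to 35.1) at 0 to 10% mtDNA, 67.0 CPM (63.2 to 71.0) at 10 to 20% and 296 CPM (287 to 306) over 20%. In the mutant the same bins gave 54.0 CPM (52.0 to 56.1), 187 CPM (179 to 194) and 1227 CPM (1195 to 1259). The level was thus higher in each successive bin of both libraries, with no overlap of intervals. Over 20% it was 8.93-fold that at 0 to 10% in WT and 22.7-fold in the mutant. Without the barcodes that held UMIs of 7 or more of the 10 genes, which were chosen after their values were seen and are described below, the ratios were 13.5-fold and 23.9-fold. Of the genes with at least 20 UMIs in the contrast, *Nefl* ranked 25 of 14177 by this ratio in WT and 3 of 14775 in the mutant.

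*Nefh*, the heavy subunit whose long phosphorylated tail spaces filaments in large axons, followed a similar course at lower levels. Its WT levels were 21.9, 24.9 and 90.6 CPM from the lowest to the highest bin, and its mutant levels were 19.7, 30.5 and 163 CPM. The first and second WT bins differed by little, and the step lay above 20%. *Nefm*, the medium subunit, was less abundant and did not share this course in WT, where it measured 6.12 CPM (5.36 to 6.97), 2.18 CPM (1.53 to 3.005) and 9.33 CPM (7.73 to 11.2). Its mutant levels were 5.27, 7.34 and 32.7 CPM. The WT value at 0 to 10% rested on few barcodes, since without the 3 barcodes of that bin that held UMIs of 7 or more of the 10 genes it was 0.721 CPM (0.475 to 1.05), which puts *Nefm* in the same ascending order as *Nefl*.

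*Kif5a*, the neuronal kinesin-1 heavy chain, measured 10.1, 20.8 and 116 CPM in the WT bins and 15.7, 38.2 and 238 CPM in the mutant bins, which is 11.6-fold and 15.2-fold from the lowest to the highest bin. *Sncg*, which encodes gamma-synuclein and by which the study named its RGC cluster, stood at 7.72, 6.83 and 35.5 CPM in WT and at 5.93, 10.98 and 78.1 CPM in the mutant. Its levels at 0 to 10% and 10 to 20% in WT had overlapping intervals (6.86 to 8.66 and 5.65 to 8.20 CPM). Without the 3 barcodes, however, the WT level at 0 to 10% was 1.76 CPM (1.36 to 2.24), below that at 10 to 20%.

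The remaining genes were scarcer. *Pou4f1* was at 0.852, 1.18 and 3.65 CPM in WT and at 2.43, 3.33 and 18.2 CPM in the mutant. *Pou4f2*, which drives RGC differentiation, gave 26 WT and 59 mutant UMIs in all, and its levels over 20% were 1.32 CPM (0.770 to 2.12) and 4.49 CPM (2.78 to 6.87). *Rbpms*, an RNA-binding protein gene used as a pan-RGC marker, was at 1.89, 1.18 and 4.20 CPM in WT and at 4.16, 4.16 and 13.5 CPM in the mutant. *Slc17a6*, the vesicular glutamate transporter VGLUT2 of RGCs, was at 2.34, 0.766 and 1.94 CPM in WT and at 3.02, 4.997 and 11.1 CPM in the mutant. *Thy1*, a surface glycoprotein gene of RGCs that other neurons also express, was at 6.68, 2.53 and 6.45 CPM in WT and at 9.33, 12.5 and 34.7 CPM in the mutant. In WT, *Slc17a6* and *Thy1* had their lowest level in the middle bin, and their ratios of over 20% to 0 to 10%, −0.27 (−0.97 to 0.38) and −0.05 (−0.43 to 0.31) on the log2 scale, had intervals that contained 0. This too rested on the 3 WT barcodes, without which *Slc17a6* stood at 0.614 CPM (0.389 to 0.922) and *Thy1* at 3.74 CPM (3.14 to 4.41) at 0 to 10%, with log2 ratios of 1.60 and 0.73. *Pou4f1* then stood at 0.240 CPM (0.110 to 0.456), with a log2 ratio of 3.90.

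Over the 10 genes, the median log2 ratio of over 20% to 0 to 10% mtDNA was 2.07 in WT, where the median over all genes was −1.09, and 2.88 in the mutant, where that median was −0.74. In WT, 8 genes were higher over 20% and 7 were at least 2-fold higher, beside 2.93% of all genes. In the mutant, 10 of 10 were at least 2-fold higher, beside 10.9% of all genes. As the genes were chosen with this contrast in view, nothing is read from the counts. When a UMI of a gene was divided by nuclear-encoded UMIs only, the WT median was 2.57, and without the barcodes of 7 or more of the genes it was 3.62.

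In finer steps, the levels of *Nefl* did not jump at the 20% limit. In WT they were 39.0 CPM at 0 to 5% mtDNA, 28.6 at 5 to 10%, 59.4 at 10 to 15%, 79.0 at 15 to 20% and 140.4 at 20 to 30%. In the mutant they were 45.8, 61.3, 139.7, 314 and 751 CPM. The WT value at 0 to 5% rested in part on single barcodes, which held 325 and 62 of the 646 *Nefl* UMIs there. The values just inside and just outside the limit, at 18 to 20% and at 20 to 22%, were 94.7 and 121 CPM for *Nefl* in WT and 368 and 499 CPM in the mutant. For *Kif5a* they were 31.3 and 43.4 CPM in WT and 74.3 and 87.0 CPM in the mutant. *Nefh* had a larger step there in WT (17.4 and 59.95 CPM) than in the mutant (44.9 and 51.6 CPM). *Sncg* went from 10.3 to 27.4 CPM in WT and from 22.9 to 38.4 CPM in the mutant. The WT values of both genes at 20 to 22% rested in part on 1 barcode of 6289 UMIs and 21.8% mtDNA. It held 47 *Nefh* and 32 *Sncg* UMIs, beside 342 and 127 in all WT barcodes at 20 to 30%. The steps without it were not computed. In both libraries the highest *Nefh* level lay at 50 to 100% mtDNA, with 236 CPM in WT and 632 CPM in the mutant.

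A limit of 20% mtDNA set aside more of the RNA of these genes than of total RNA. Barcodes over 20% held 19.1% of all UMIs in WT and 6.91% in the mutant. They held 61.5% (60.3 to 62.7) of the *Nefl* UMIs in WT and 52.7% (51.7 to 53.6) in the mutant, 67.2% and 46.4% of the *Kif5a* UMIs, 53.0% and 45.3% of the *Sncg* UMIs and 48.3% and 35.4% of the *Nefh* UMIs. *Pou4f2* had 65.4% and 35.6% of its UMIs there and *Pou4f1* 47.5% and 34.0%. *Slc17a6* (19.8% and 19.4%) and *Thy1* (22.02% and 20.5%) were close to the share of all UMIs in WT, though not in the mutant. Without the barcodes of 7 or more of the genes, the WT share of *Thy1* was 30.4%, that of *Slc17a6* was 24 of 60 UMIs, that of *Nefm* was 64.04% in place of 31.01%, and that of *Sncg* was 70.02%. For comparison, *Glul*, a Müller cell gene, had 35.99% and 34.9% of its UMIs above the limit and *Malat1*, a nuclear RNA, 3.63% and 2.43%.

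**Figure D1:**
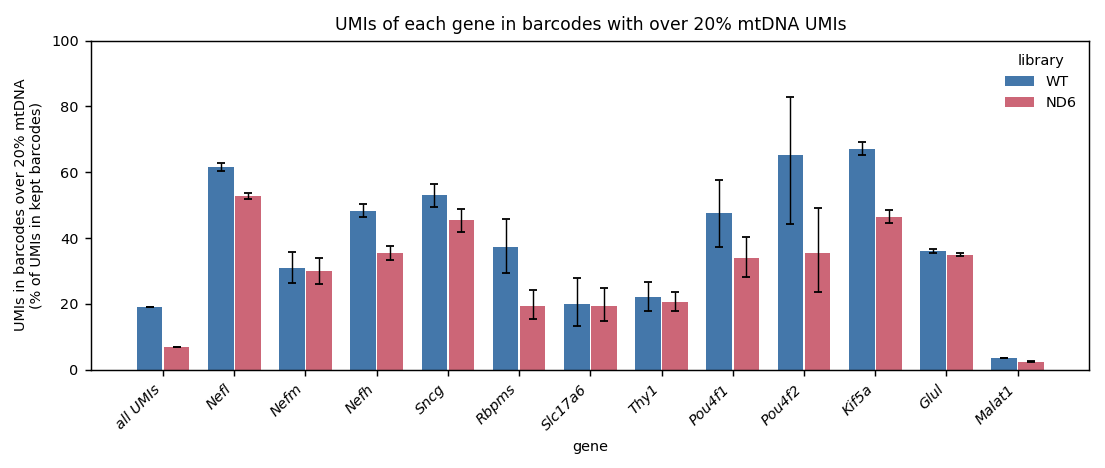
Share of each gene's UMIs that lay in barcodes over 20% mtDNA (percent of its UMIs in kept barcodes), as bars from 0 for WT and ND6 with exact 95% binomial intervals. *Kif5a* (67.2%), *Pou4f2* (65.4%) and *Nefl* (61.5%) have the highest WT bars and *Nefl* (52.7%) the highest mutant bar, while *Slc17a6* and *Thy1* lie near 20%.

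The libraries of both genotypes were compared next within each bin. Over 20% mtDNA, each of the 10 genes was higher in the mutant library. *Slc17a6* was 5.72-fold, *Thy1* 5.37-fold and *Pou4f1* 4.98-fold the WT level, followed by *Nefl* with 4.14-fold, *Nefm* with 3.51-fold and *Pou4f2* with 3.40-fold. *Rbpms* was at 3.21-fold, *Sncg* at 2.20-fold, *Kif5a* at 2.05-fold and *Nefh* at 1.79-fold. The intervals of *Nefl* (1.99 to 2.11 on the log2 scale) and *Nefh* (0.71 to 0.98) did not meet, so the neurofilament genes differed from each other in this ratio beyond counting error. In total, 9 of 10 were at least 2-fold higher, beside 24.2% of all genes. The median log2 ratio was 1.79, and 0.35 over all genes. In the same barcodes *Glul* had a log2 ratio of 2.46.

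At 10 to 20% mtDNA the ratios kept this order in part. *Slc17a6* had the highest log2 ratio with 2.71 (1.83 to 3.69), ahead of *Thy1* with 2.30, *Rbpms* with 1.82, *Nefm* with 1.75, *Pou4f1* with 1.50 and *Nefl* with 1.48. *Kif5a* had 0.88, *Sncg* 0.68 and *Nefh* 0.29 (0.09 to 0.49). *Pou4f2* had 5 WT and 7 mutant UMIs and was not compared. Of the 9 genes compared, 9 were higher and 6 at least 2-fold higher, beside 10.5% of all genes, and the median log2 ratio was 1.50 (0.11 over all genes).

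At 0 to 10% mtDNA the directions were mixed. *Pou4f2* (2.55, 1.05 to 4.51), *Pou4f1* (1.51, 0.94 to 2.12) and *Rbpms* (1.14, 0.74 to 1.55) were more than 2-fold higher in the mutant on 4, 32 and 71 WT UMIs. *Nefl* (0.70), *Kif5a* (0.64) and *Thy1* (0.48) were higher by less than 2-fold, and the interval of *Slc17a6* (0.36, −0.03 to 0.76) contained 0. *Nefh* (−0.15, −0.29 to −0.02), *Nefm* (−0.22, −0.48 to 0.04) and *Sncg* (−0.38, −0.62 to −0.14) were lower. In all, 3 of 10 were at least 2-fold higher, beside 7.67% of all genes, and the median log2 ratio was 0.56 (0.00 over all genes). The values at 0 to 10% rested in part on few barcodes: without the barcodes that held 7 or more of the 10 genes, *Sncg* had a log2 ratio of 0.97 (0.56 to 1.41), *Nefm* one of 2.44, *Pou4f1* one of 2.65, *Slc17a6* one of 1.98, *Nefl* one of 1.23, *Thy1* one of 1.06 and *Nefh* one of −0.05 (−0.19 to 0.09), and the median was 1.38.

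**Figure D2:**
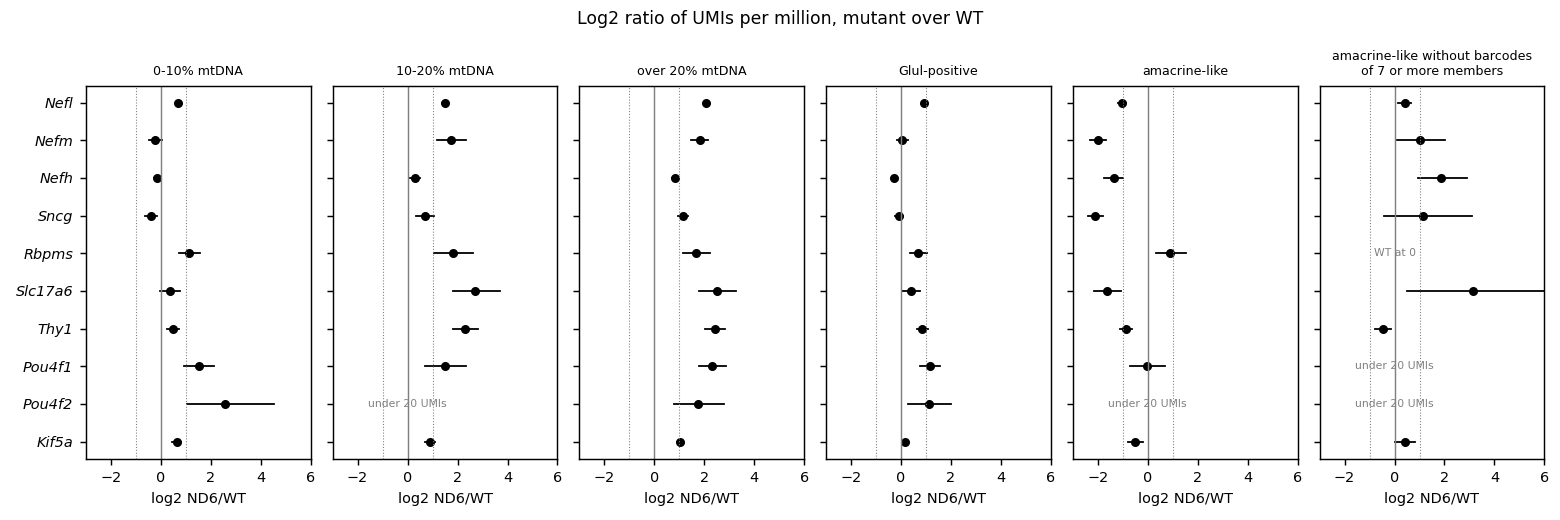
Log2 ratio of CPM, mutant over WT, for each gene in 6 sets of barcodes, with exact 95% counting intervals as bars and dotted lines at a 2-fold difference. The 10 points over 20% mtDNA lie right of 0, while 8 of 9 points of the amacrine-like cluster lie left of 0 and 6 of 7 lie right of 0 once barcodes with 7 or more of the genes are left out.

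Detection in single barcodes was low. No UMI of any of the 10 genes was present in 18301 WT (79.0%) and 16228 mutant (72.9%) barcodes. To compare barcodes of unlike depth, each was thinned to 400 UMIs. A *Nefl* UMI was then present in 9.45% of WT and 28.0% of mutant barcodes over 20% mtDNA, and in 1.28% and 2.52% at 0 to 10%. Without thinning the shares were 17.97% and 44.2%, and 10.3% and 10.6%. In rod-like clusters, which should lack *Nefl*, the thinned shares were 2.68% and 2.97% (7.95% and 8.15% unthinned, at median depths of 1166 and 1091 UMIs). The share at 0 to 10% was no higher than that of the rod-like clusters, and the share over 20% was above it in both libraries. The rod-like clusters were not split by mtDNA content, so they do not give a matched background for either bin.

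Barcodes with at least 1 UMI of *Glul*, which encodes glutamine synthetase, the ammonia-detoxifying enzyme of Müller cells, numbered 7480 in WT and 10202 in the mutant. They held 54.3% and 66.6% of all UMIs but 68.3% and 89.3% of the *Nefl* UMIs and 67.0% and 86.6% of the *Kif5a* UMIs. Free RNA, described below, also held *Glul* UMIs, and whether *Glul*-positive barcodes held a Müller cell was not tested. In them *Nefl* was at 116 CPM in WT and 216 CPM in the mutant (log2 ratio 0.90, 0.85 to 0.95). *Pou4f1* (1.15), *Pou4f2* (1.11), *Thy1* (0.85), *Rbpms* (0.69), *Slc17a6* (0.38) and *Kif5a* (0.18) were also higher in the mutant, *Nefh* was lower (−0.27, −0.37 to −0.17), and the intervals of *Nefm* (0.05, −0.17 to 0.27) and *Sncg* (−0.08, −0.24 to 0.08) contained 0. At least 2-fold higher were 2 of 10, beside 8.85% of all genes, and the median log2 ratio of 0.54 (0.08 over all genes) was 0.12 in barcodes with at least 3 *Glul* UMIs and 1.14 without the barcodes of 7 or more of the genes. Without the latter, *Nefm* had a log2 ratio of 1.48, *Slc17a6* one of 1.51, *Thy1* one of 1.45 and *Sncg* one of 0.44.

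Within the barcodes over 20% mtDNA, those with a *Glul* UMI had more RNA of the 10 genes than those without, at median depths of 1080 and 988 UMIs in WT and of 923 and 621 UMIs in the mutant. *Nefl* was at 533 CPM with and 155 CPM without a *Glul* UMI in WT, and at 1468 and 319 CPM in the mutant. *Kif5a* was at 210.3 and 60.5 CPM in WT and at 283 and 71.2 CPM in the mutant. The median log2 ratio was 1.66 in WT, with 8 of 9 genes at least 2-fold higher beside 10.8% of all genes, and 1.21 in the mutant, with 7 of 10 at least 2-fold higher beside 12.2% of all genes. At 0 to 10% mtDNA the mutant median was 0.32, close to the 0.30 of all genes, whereas the WT median was 1.65 (0.21 over all genes), at median depths of 6596 UMIs with and 2154 UMIs without a *Glul* UMI. The 3 WT barcodes of that bin with 7 or more of the genes held 5, 7 and 3 *Glul* UMIs. They therefore counted among the WT barcodes with a *Glul* UMI, and the median without them was not computed. The Müller-like cluster, with 42 WT and 88 mutant barcodes and *Glul* at 4091 and 3336 CPM, had *Nefl* at 62.1 and 58.5 CPM.

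To see which barcodes carried the genes, the kept barcodes were grouped into 24 clusters without using the 10 genes, *Glul* or the mtDNA genes. No cluster had more than 1 of the 12 RGC markers from outside the 10 genes among its 10 leading genes. Levels were highest in 4 clusters, which differed in which of the genes were high. Outside these 4, unnamed cluster 8, with 1232 WT and 1023 mutant barcodes, held 910 of 6195 WT and 1910 of 10885 mutant *Nefl* UMIs. All comparisons between clusters are descriptive.

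The first of the 4 was a small cluster of 75 WT and 27 mutant barcodes in which *Nefh* reached 2886 CPM in WT and 5225 CPM in the mutant and *Kif5a* 2592 and 2322 CPM. It made up 0.319% of WT UMIs and 0.0968% of mutant UMIs but held 25.7% and 15.9% of the *Nefh* UMIs and 25.0% and 6.34% of the *Kif5a* UMIs. *Nefl* was at 791 and 1528 CPM, *Sncg* at 228 and 581 CPM and *Nefm* at 168 and 199 CPM, while *Pou4f1* had only 4.65 and 45.8 CPM, from 1 and 3 UMIs. The median mtDNA share of its barcodes was 43.3% in WT and 50.3% in the mutant. Its leading genes were *Unc13c*, *Sptbn4*, *Rapgef4*, *Rims1*, *Tbc1d9b*, *Kif1a*, *Bc1*, *Gap43*, *Rph3a* and *Pvalb*, several of which encode presynaptic or axonal proteins. The 12 RGC markers summed to 661 CPM in WT and 917 CPM in the mutant, against 92.6 and 115 CPM over all kept barcodes. The amacrine markers summed to 27.9 and 15.3 CPM. Of the 12 RGC markers, *Nrn1*, *Stmn2* and *Gap43* were raised and *Chrna6*, *Pou4f3*, *Isl2*, *Opn4*, *Eomes* and *Tbr1* were at 0. The genes at 0 were scarce everywhere, with 0.178 to 1.04 CPM over all WT and 0.355 to 3.87 CPM over all mutant barcodes, so their absence says little. The cluster is called the *Nefh*-rich cluster and given no cell type. It was chosen after its values were seen.

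The second, unnamed cluster 12, with 164 WT and 488 mutant barcodes, had the highest *Nefl* level, 2302 CPM in WT and 2600 CPM in the mutant, together with *Glul* at 2482 and 5461 CPM and 8 Müller cell markers at a sum of 2443 and 4117 CPM, against 829 and 902 CPM over all kept barcodes. *Kif5a* was at 452 and 409 CPM there and *Nefh* at only 90.4 CPM in both. The 12 RGC markers summed to 435 and 422 CPM there, against 92.6 and 115 CPM over all kept barcodes. The amacrine markers summed to 257 and 294 CPM, against 50.9 and 88.3 CPM. Rod and cone marker sums were lower there than over all kept barcodes. The leading genes of cluster 12 were *Bc1*, *Rph3a*, *Nrsn1*, *Dact3*, *Rasl10b*, *Ppp1r9b*, *Camk2n1*, *Iqsec3*, *Map1a* and *Chd3*. The cluster made up 0.708% of WT and 2.19% of mutant barcodes but held 15.2% and 32.0% of the *Nefl* UMIs. Its median mtDNA share was 43.1% and 35.1%. Between the genotypes, the median log2 ratio of the genes within it was −0.02, against 0.31 for all genes. The third, unnamed cluster 3, with 2224 and 1771 barcodes at 47.2% and 34.1% mtDNA, had *Nefl* at 851 and 1465 CPM, *Glul* at 1509.7 and 3944 CPM, the Müller cell markers at 1881 and 3213 CPM and a median log2 ratio of 0.72 (0.41 over all genes). After thinning, a *Nefl* UMI was present in 55.3% of WT and 59.7% of mutant barcodes of cluster 12 and in 25.2% and 39.4% of those of cluster 3.

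The fourth, the amacrine-like cluster 15, with 94 WT and 319 mutant barcodes, was led by *Snhg11*, *Meg3*, *Cartpt*, *Ptprf*, *Nhlh2*, *Lamp5*, *Pax6*, *Sparcl1*, *Slc6a9* and *Slc32a1*. Amacrine cells are inhibitory interneurons, of which some are displaced into the ganglion cell layer. The amacrine markers summed to 1791 CPM in WT and 1508 CPM in the mutant, and the 12 RGC markers to 883 and 659 CPM, with *Isl2*, *Opn4* and *Eomes* at 0 in WT. The cluster had the highest WT levels of *Nefm* (280 CPM), *Sncg* (329 CPM), *Slc17a6* (84.9 CPM) and *Thy1* (293 CPM) of all clusters. In the mutant they were 70.0, 76.3, 27.7 and 160.4 CPM. *Nefl* was at 773 CPM in WT and 379 CPM in the mutant, *Kif5a* at 189 and 133 CPM, *Nefh* at 158 and 61.7 CPM, *Rbpms* at 37.99 and 70.5 CPM and *Pou4f1* at 32.9 and 32.4 CPM. Of the 9 genes compared, 8 were thus lower in the mutant and 5 at least 2-fold lower, beside 2.16% of all genes, with a median log2 ratio of −1.03 (0.07 over all genes).

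These levels rested on few barcodes. Barcodes with UMIs of 7 or more of the 10 genes numbered 4 in WT, all of them in the amacrine-like cluster, and 8 in the mutant, 6 of them in that cluster. They held 54.0% of the *Nefm*, 52.4% of the *Slc17a6*, 30.2% of the *Thy1* and 29.7% of the *Sncg* UMIs of the WT library, and 13.5%, 11.6%, 9.73% and 15.8% of those of the mutant library. A single WT barcode of 66060 UMIs and 0.811% mtDNA had UMIs of 10 of the 10 genes, namely 325 of *Nefl*, 156 of *Nefm*, 104 of *Sncg*, 89 of *Thy1*, 65 of *Nefh*, 53 of *Kif5a*, 46 of *Slc17a6*, 19 of *Rbpms*, 9 of *Pou4f1* and 1 of *Pou4f2*. It also had 15 UMIs of *Slc6a9*, the glycine transporter of amacrine cells, and none of *Gad1*. The WT barcodes of 24393, 14958 and 6289 UMIs had 8, 6 and 0 UMIs of *Slc6a9* and none of *Gad1*. The 6 mutant barcodes in the amacrine-like cluster had no UMI of *Slc6a9* or *Gad1*. The richest mutant barcode had 26955 UMIs, with 80 of *Sncg*, 62 of *Nefl*, 54 of *Thy1*, 34 of *Nefm* and 25 of *Pou4f1*. No doublet caller was run, and whether such barcodes held more than 1 cell was not tested.

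Without them, the amacrine-like cluster had 90 WT and 313 mutant barcodes, and the direction turned for 5 genes that had been lower in the mutant by 2-fold or more. *Nefl* was at 246 CPM in WT and 326 CPM in the mutant (log2 ratio 0.40, 0.15 to 0.66), *Nefm* at 17.7 and 35.6 CPM (1.01), *Nefh* at 16.2 and 58.2 CPM (1.84), *Sncg* at 5.90 and 12.9 CPM (1.13, −0.41 to 3.12) and *Slc17a6* at 1.48 and 12.9 CPM (3.13, 0.52 to 8.49, on 1 WT UMI). *Kif5a*, lower by less than 2-fold before, was at 92.9 and 123 CPM (0.41). *Thy1* stayed lower, with 173 and 125 CPM (−0.47, −0.79 to −0.13). *Rbpms* had no UMI in WT, which allowed a level of up to 5.44 CPM, and 51.7 CPM in the mutant.

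The proportions of the neurofilament subunits also varied. In WT there were 5.42 *Nefl* UMIs per *Nefm* UMI at 0 to 10% mtDNA, 30.7 at 10 to 20% and 31.8 over 20%, and in the mutant 10.2, 25.4 and 37.5. The low WT value came from the 3 barcodes with 7 or more of the genes, without which it was 30.3, while that of the mutant was 13.1 without its own. In the amacrine-like cluster the numbers were 2.76 in WT and 5.41 in the mutant but 13.9 and 9.17 without such barcodes, in the *Nefh*-rich cluster 4.72 and 7.69, and in cluster 12 78.5 and 49.7. *Nefl* UMIs per *Nefh* UMI were 0.274 in WT and 0.292 in the mutant in the *Nefh*-rich cluster, 25.5 and 28.8 in cluster 12 and 3.27 and 7.55 in all barcodes over 20%. High *Nefl* therefore came with abundant *Nefh* in the *Nefh*-rich cluster and with little *Nefh* in cluster 12, in both libraries. These are ratios of 3′ UMI counts, not of protein subunits.

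Free RNA here means the RNA in barcodes of 10 to 100 UMIs, of which there were 7324 in WT and 8621 in the mutant. They held 226145 and 389287 UMIs in all. Whether these barcodes also held cell debris was not tested. The 10 genes summed to 217 CPM in WT and 568 CPM in the mutant there. *Nefl* was at 92.9 CPM (57.5 to 142, 21 UMIs) in WT and 265 CPM (216 to 321, 103 UMIs) in the mutant, a log2 ratio of 1.51 (0.82 to 2.26). *Thy1* had 2 and 28 UMIs (3.02, 1.04 to 6.14), *Kif5a* 11 and 20 (0.08, −1.05 to 1.29) and *Nefh* 6 and 18 (0.80, −0.59 to 2.42). Of the 4 genes with at least 20 UMIs, 2 were at least 2-fold higher in the mutant, beside 13.9% of all genes. *Glul* differed in the same direction, with 105 and 549 UMIs and a log2 ratio of 1.60 (1.30 to 1.92). *Nefl* UMIs per *Glul* UMI were 0.200 in WT and 0.188 in mutant free RNA, and 0.227 and 0.252 in *Glul*-positive barcodes.

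Set against free RNA, barcodes over 20% mtDNA had more of some of the genes. *Nefl* was higher there than in free RNA by a log2 ratio of 1.67 in WT and 2.21 in the mutant, *Kif5a* by 1.26 and 2.21 and *Nefh* by 1.77 and 1.81. *Slc17a6* and *Thy1* were instead lower than in mutant free RNA (−1.21 and −1.05), so their mutant levels over 20% did not exceed the free RNA level. The same held for *Nefm*, with 32.7 CPM over 20% and 35.96 CPM in mutant free RNA (−0.14, −0.93 to 0.77), and for *Rbpms* (−0.42, −1.54 to 0.96). In WT, *Nefm* was at 9.33 and 8.84 CPM, on 2 UMIs in free RNA. In the mutant, *Glul*-positive barcodes had lower levels than free RNA for all 10 genes, 7 of them by at least 2-fold, beside 16.4% of all genes. In WT, 7 of 9 genes were lower and 1 at least 2-fold lower, beside 15.5% of all genes, with a median of −0.25. The *Nefl* ratio between genotypes in free RNA was smaller than that over 20% mtDNA (2.05), although the upper end of its interval passed it.

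Related genes were read from 4 lists, which were chosen with earlier results of these data known. Some genes stand in more than 1 list, such as *Stmn2*, *Tubb3*, *Ina*, *Kif5b* and *Kif5c*, so the counts are not independent. Over 20% mtDNA, 10 of 14 other ganglion cell genes had enough UMIs. All 10 were higher in the mutant and 8 at least 2-fold, beside 24.2% of all genes, with a median log2 ratio of 1.50. Among them *Ebf1*, a transcription factor gene, went from 6.99 to 41.1 CPM, *Gap43*, a growth cone protein gene, from 30.2 to 69.7 CPM and *Stmn2*, a microtubule regulator of axons, from 26.6 to 66.5 CPM, while *Jam2* was at 28.1 and 29.1 CPM. Of 11 genes of the axon cytoskeleton, 11 were higher and 9 at least 2-fold, beside the same 24.2% (median 1.48). They included *Ina*, the neurofilament-associated internexin, at 14.7 and 55.0 CPM, the tau gene *Mapt* at 15.2 and 64.6 CPM and *Dpysl2* at 67.7 and 235 CPM. Of 8 paralogs compared, 7 were higher and 5 at least 2-fold, again beside 24.2% (median 1.20), and *Slc17a7*, the photoreceptor and bipolar glutamate transporter VGLUT1, was lower with −0.22.

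Axonal transport genes had smaller ratios. Of 11, 9 were higher in the mutant over 20% mtDNA and 4 at least 2-fold, beside 24.2% of all genes, with a median of 0.55, beside the 0.35 of all genes. *Kif5c*, the other neuron-enriched kinesin-1 gene, went from 55.0 to 175 CPM and *Kif1a* from 135 to 387 CPM. The widely expressed *Kif5b* was at 243 and 487 CPM, and *Dctn1*, a dynactin subunit gene, at 133 and 117 CPM. Across mtDNA content in WT, the lists had lower ratios than the 10 genes. As the 10 genes were chosen with this contrast in view, nothing is read from that difference. Their median log2 ratios of over 20% to 0 to 10% were 0.20 for the other ganglion cell genes, 0.48 for the axon cytoskeleton, 0.25 for the paralogs and −0.55 for axonal transport. The median was 2.07 for the 10 genes and −1.09 over all genes. Single members reached the range of the 10 genes, such as *Gap43* with 3.26, *Stmn2* with 3.21, *Rbpms2* with 2.39 and *Kif5c* with 2.22. In contrast, *Map1b* (−1.47) and *Kif3b* (−1.64) were lower over 20%, as was the median over all genes. In the mutant the medians of the 4 lists were 1.67, 1.53, 1.66 and −0.20, beside −0.74 over all genes.

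The genes most like the 10 were sought across 45 pairs of cluster and library with at least 20 barcodes, by the Pearson r of log2(CPM + 1) with the mean of the 10 genes. They were *Cplx1*, a regulator of synaptic vesicle release (r = 0.95), the calcium-binding protein gene *Calb2* (0.92), the ankyrin gene *Ank1* (0.92), the parvalbumin gene *Pvalb* (0.92) and the rabphilin gene *Rph3a* (0.91). *Glul* had an r of 0.60. Over 20% mtDNA, *Cplx1* was at 17.8 CPM in WT and 52.6 CPM in the mutant, *Calb2* at 48.2 and 121 CPM and *Rph3a* at 56.2 and 182 CPM. Among the 10 genes, the pair with the highest r was *Nefl* and *Sncg* (0.90) and the pair with the lowest *Nefh* and *Rbpms* (0.37). The 45 pairs come from 2 libraries and differ in depth, so these values only describe the clusters.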

How the data were processed

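Retinas were dissociated with enzymes and profiled with the 10x Genomics Chromium Single Cell 3′ kit. The authors deposited, for each of 2 libraries, raw UMI counts for 32285 genes over the whole barcode list, aligned to mm10 and counted with Cell Ranger 3.0.2 according to the submitters' processing notes. The annotation release is not given in the sources used here. The matrices hold 77958836 (WT) and 80358255 (ND6) UMIs. Samples were grouped by the genotype label, with 1 library per genotype, so no test between genotypes was made.

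Barcodes with more than 400 UMIs and more than 200 genes were kept, the study's own minimums, but not its 20% mtDNA limit. UMIs were summed per set of barcodes and divided by the set's total (CPM). Exact Poisson, conditional binomial (ratios) and Clopper-Pearson (shares) 95% intervals cover counting error only. Ratios needed at least 20 UMIs over both sums, the percent of all genes given beside a count is the share of such genes past the same 2-fold ratio, and 3 counts served as the floor. Clusters (Leiden) left out the 10 genes, *Glul* and the mtDNA genes, and were named from fixed marker lists by a rule settled after the clusters had been seen. Doublets were kept. Positions and stretches came from GENCODE M21 (GRCm38).

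The members and lists were chosen with earlier results of these data known. Named were all members, list genes with at least 100 UMIs, and the 5 most similar of the genes with at least 200 UMIs. Computations were tested on simulated data. Python 3.11.15, numpy 2.4.6, scipy 1.17.1, pandas 2.3.3, scikit-learn 1.9.0, leidenalg 0.10.2 and matplotlib 3.10.9 were used. One marker gene and one sequence are not reported here. Alternatives changed the scaling, the depth minimum, the barcodes included and the gates.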

Additional observations from a re-analysis of the deposited data

Results flagged for a closer look

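*Nefh* and *Sncg* went in opposite directions between the genotypes at low and at high mtDNA content, which is why they are listed here. For *Nefh* the log2 ratio of mutant to WT was 0.84 over 20% mtDNA and −0.15 at 0 to 10%. For *Sncg* it was 1.14 over 20% and −0.38 at 0 to 10%. With 1 library per genotype the difference between the bins was not tested. At 0 to 10%, *Sncg* was at 0.03 without the 1% of barcodes with the most UMIs, at 0.47 as the mean of per-barcode CPM and at 0.97 without the barcodes of 7 or more of the 10 genes, so its lower mutant value rested on few deep barcodes. *Nefh* was at −0.05 (−0.19 to 0.09) without the latter barcodes.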

How the results depend on the processing

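No paired analysis was possible because each genotype had 1 library, and for the same reason no replicate could be left out. Over 20% mtDNA, the median log2 ratio of mutant to WT of the 10 genes (1.79) stayed between 1.62 and 1.91 under the alternatives run, and that at 10 to 20% (1.50) between 1.20 and 1.66. The ratio at 0 to 10% (0.56) was 1.54 as the mean of per-barcode CPM, 1.05 without the 1% of barcodes with the most UMIs and 1.38 without the barcodes of 7 or more genes, an alternative chosen after seeing the data. In *Glul*-positive barcodes 0.54 was 0.12 with at least 3 *Glul* UMIs and 1.14 without the barcodes of 7 or more genes. The amacrine-like value (−1.03) was −0.86 under median-of-ratios scaling, −0.11 without the 1% deepest barcodes, −2.03 with a marker gate (45 WT and 145 mutant barcodes), 0.10 by per-barcode means and 1.07 without the barcodes of 7 or more genes. Single genes that turned there were *Nefm* (0.10), *Kif5a* (0.34), *Pou4f1* (0.88) and *Slc17a6* (1.10) by per-barcode means, and *Kif5a* (0.41), *Nefl* (0.40), *Nefm* (1.01), *Nefh* (1.84), *Sncg* (1.13) and *Slc17a6* (3.13) without those barcodes. The ratio of over 20% to 0 to 10% mtDNA was 2.57 per nuclear-encoded UMI, 2.999 under median-of-ratios scaling and 3.62 without those barcodes in WT (2.07), and 3.54 under median-of-ratios scaling in the mutant (2.88). The mutant free RNA level of the 10 genes (568 CPM) was 422 CPM in barcodes of 10 to 50 UMIs. Counts of all genes past 2-fold, with at least 100 UMIs and with at least 1 UMI in place of 20, were 866 and 4443 at 0 to 10% (1754), 566 and 4652 at 10 to 20% (1549) and 1381 and 6589 over 20% (3074), and 10463 with at least 1 UMI for over 20% against 0 to 10% in the mutant (6755). Amacrine-like cells clustered from barcodes up to 20% mtDNA gave no value, since no such cluster met the naming rule. Causes were not tested.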

Other observations

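*Rbpms* was also detected apart from the neuronal clusters, and whether the cells there expressed it was not tested. In the microglia-like cluster 22 it stood at 59.5 CPM in WT (23 UMIs) and 52.6 CPM in the mutant (7 UMIs), the highest WT level of *Rbpms* in any cluster. *Nefh* in the WT bipolar-like cluster 11 (87.7 CPM, against 18.8 CPM in the mutant) came mostly from 1 barcode of 8542 UMIs and 12.1% mtDNA, which held 74 of the 105 UMIs.

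Barcodes of over 100 and up to 400 UMIs, below the minimum for a kept barcode, numbered 26158 in WT and 57860 in the mutant. *Nefl* was at 225 and 340 CPM in them, *Slc17a6* at 1.16 and 31.3 CPM and *Thy1* at 7.13 and 65.3 CPM.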
